A study of Mus musculus with 22 samples.

Results

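The genes described here are 9 markers of the osteoblast fate, taken as the rows Runx2, Sp7, Alpl, Spp1, Ibsp, Bglap, Phex, Postn and Tnfrsf11b among the 30170 genes of the deposited table. They were followed through RNA sequencing of C3H 10T1/2 cells, a mouse mesenchymal line able to form fat, bone or cartilage cells, which here was driven towards adipocytes. The lines expressed DNMT3A1, the long isoform of a de novo DNA methyltransferase, as WT, as W330R or as the double mutant W330R-R181E. W330 lies in the PWWP domain, and R181 in the amino-terminal region found in the long isoform alone. There were 11 conditions with 2 libraries each: WT and W330R undifferentiated and on days 2, 4 and 6, and W330R-R181E on days 2, 4 and 6. The differentiating cells of every genotype received dexamethasone (1 µM), insulin (5 µg/mL), isobutylmethylxanthine (0.5 mM) and troglitazone (5 µM) for the first 2 days, followed by insulin without the other agents. Undifferentiated cells received none of these, and no undifferentiated W330R-R181E library was analysed here. The comparisons ask how the variants alter gene expression as the cells leave the undifferentiated state. The labels do not say whether the replicates are separate cultures or clones, so p-values measure the spread between these libraries only, and a variant cannot be told apart from the line that carries it. The column names of the double mutant's 6 libraries give the second substitution as R181A, whereas their labels give R181E.

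Mesenchymal progenitors can become osteoblasts or adipocytes, and the factors that drive one fate tend to oppose the other. Osteoblast commitment starts with the transcription factor Runx2, proceeds through Sp7 (osterix) and ends in cells that lay down a collagen matrix and mineralise it. Alkaline phosphatase (Alpl) frees phosphate for mineral, Phex is a membrane peptidase that cuts mineral-binding peptides, Spp1 (osteopontin), Ibsp (bone sialoprotein), Bglap (osteocalcin) and Postn (periostin) are secreted matrix proteins, and Tnfrsf11b (osteoprotegerin) is a decoy receptor that keeps osteoclasts from forming. Of these, Sp7, Ibsp and Bglap mark committed osteoblasts, whereas Runx2, Spp1, Postn and Tnfrsf11b are also made by fibroblasts and progenitors.

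Runx2 binds DNA at the core ACCACA, or TGTGGT on the opposite strand, and CpG sites are the substrate of DNMT3A. RefSeq start sites were found for 7 of the 9 members (10 starts, mouse build GRCm38.p6), with no entry matched for Sp7 and Tnfrsf11b. The 250 bases before the start held the core in 3 of the 10 member windows. These were the windows of Runx2, of Bglap and of the upstream Spp1 start, while that of the downstream Spp1 start lacked it. Of all 32851 such windows in the mouse table, 14% held it. The windows of Spp1 and Bglap are shown because they belong to an abundant and a nearly silent member, with the core in capitals. It starts 128 bases before the Spp1 start (chr5:104434861-104435110, plus strand) and 132 bases before the Bglap start (chr3:88384467-88384716, minus strand), each written 5′ to 3′ in the direction of the gene.
Spp1: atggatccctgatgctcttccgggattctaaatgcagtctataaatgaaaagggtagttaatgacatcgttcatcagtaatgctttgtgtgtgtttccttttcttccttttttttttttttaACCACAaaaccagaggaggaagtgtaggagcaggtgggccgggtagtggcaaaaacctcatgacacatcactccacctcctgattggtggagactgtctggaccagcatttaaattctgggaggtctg
Bglap: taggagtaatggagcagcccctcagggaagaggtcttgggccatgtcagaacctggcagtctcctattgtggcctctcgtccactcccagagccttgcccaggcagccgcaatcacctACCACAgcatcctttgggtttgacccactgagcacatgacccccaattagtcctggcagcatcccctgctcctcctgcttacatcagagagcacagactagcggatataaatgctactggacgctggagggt

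The third window is that of the upstream start of Alpl (chr4:137796385-137796634, minus strand), the member with the largest difference between the mutants. CpG sites are in capitals. It holds 20 CpG sites, against a median of 6 over all windows, and 17.9% of all windows hold as many. The downstream Alpl start has 4, and neither Alpl window holds the Runx2 core. Methylation was not measured in these libraries.
Alpl: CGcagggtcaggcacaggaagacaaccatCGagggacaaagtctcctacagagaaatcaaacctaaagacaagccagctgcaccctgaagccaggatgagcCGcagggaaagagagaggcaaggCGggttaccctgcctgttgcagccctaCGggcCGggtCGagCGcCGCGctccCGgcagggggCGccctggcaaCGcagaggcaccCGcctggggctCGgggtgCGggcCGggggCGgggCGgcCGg

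Library totals ranged from 8859501 to 47453908 counted reads. Levels are given as CPM, the usual read counts scaled to library size, here with TMM factors. A level resting on 3 reads or fewer is treated as being at the floor. Such floors and the counting intervals below cover counting error only. A gene was called between conditions at a Benjamini-Hochberg adjusted p under 0.05 in edgeR's quasi-likelihood test, adjusted over the 14520 genes that passed a filter on low counts. Dnmt3a itself ranged from 68.5 to 346 CPM and was not called between genotypes in any comparison (W330R against WT over 4 stages, log2 fold change -0.36 ± 0.20 SE, adjusted p = 0.211). On day 2 its libraries in WT (mean 248 CPM) lay above those of W330R (115 CPM, log2 fold change -1.11 ± 0.40, edgeR adjusted p = 0.156) and W330R-R181E (113 CPM, -1.14 ± 0.40, 0.426), and the part of this in the member differences was not tested. Endogenous and introduced transcripts cannot be told apart in it. Libraries of 1 condition correlated at 0.956 to 0.987 across genes. Yet in 5 of the 11 conditions replicate 1 was closer to a library of another condition than to replicate 2. These were WT on days 2 and 4, and W330R-R181E on days 2, 4 and 6. The closest library of replicate 2 was not looked up. The undifferentiated columns follow another naming pattern than those of days 2 to 6, so that the change from undifferentiated cells to day 2 and a difference between preparations cannot be told apart. In bulk RNA, fewer cells of a type and less RNA per cell likewise cannot be told apart.

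Only 6 of the 9 members passed the filter, and the members that define committed osteoblasts did not. Sp7 had 0 reads in 16 of the 22 libraries and at most 8 in any. Bglap had 0 reads in 12 libraries and at most 7, and 62.9% of its 31-base sequences recur in other genes, mostly its neighbour Bglap2, so that even these reads are uncertain. Ibsp reached 11 reads on day 6 in W330R and in W330R-R181E, was above 3 reads in 9 libraries and was at 0 in 5. Its highest level was 0.975 CPM, on 9 reads, in replicate 2 of W330R-R181E on day 6. The osteoblast label thus rests on the 6 tested members, of which all but Alpl were also above the floor in every undifferentiated library. Beyond the few reads given above, no committed osteoblast signature of Sp7, Ibsp and Bglap was detectable at this depth. No test was made for these 3 genes.

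**Figure D1:**
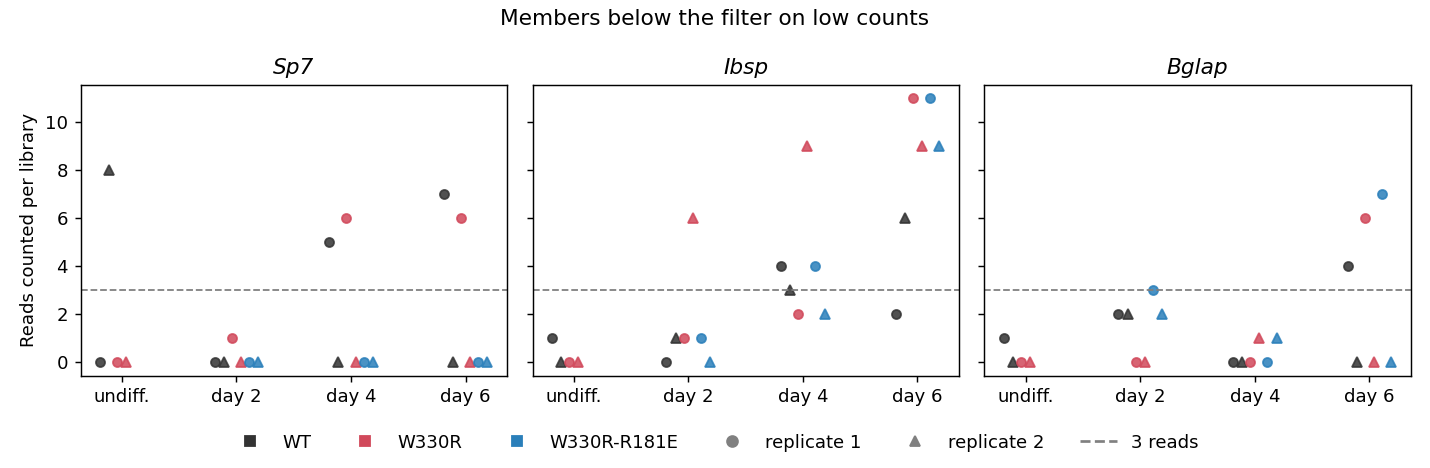
Reads counted per library (vertical axis) for Sp7, Ibsp and Bglap, the 3 members that did not pass the filter on low counts, by stage and genotype, 2 libraries per condition. The dashed line marks 3 reads; Sp7 stayed at or below 8 reads, Ibsp at or below 11 and Bglap at or below 7 in all 22 libraries.

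Per kilobase of exon, the members were ordered Postn, Spp1, Tnfrsf11b, Runx2, Phex and Alpl by their median level over the 22 libraries, at 70.8, 25.6, 13.7, 5.69, 0.754 and 0.272 RPKM. Ibsp had a median of 0.0582 RPKM, and Sp7 and Bglap had medians of 0. By these medians Postn, Spp1 and the decoy receptor stood above the transcription factor, and the phosphatase was the lowest of the 6 that could be tested. Part of the Runx2 and Spp1 reads may be ambiguous, since Runx2 overlaps the antisense gene Runx2os1 over 519 exonic bases and 14.3% of Spp1 sequences are shared with the overlapping Gm42793. Whether the counting used strand is not given in the sources used here.

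**Figure D2:**
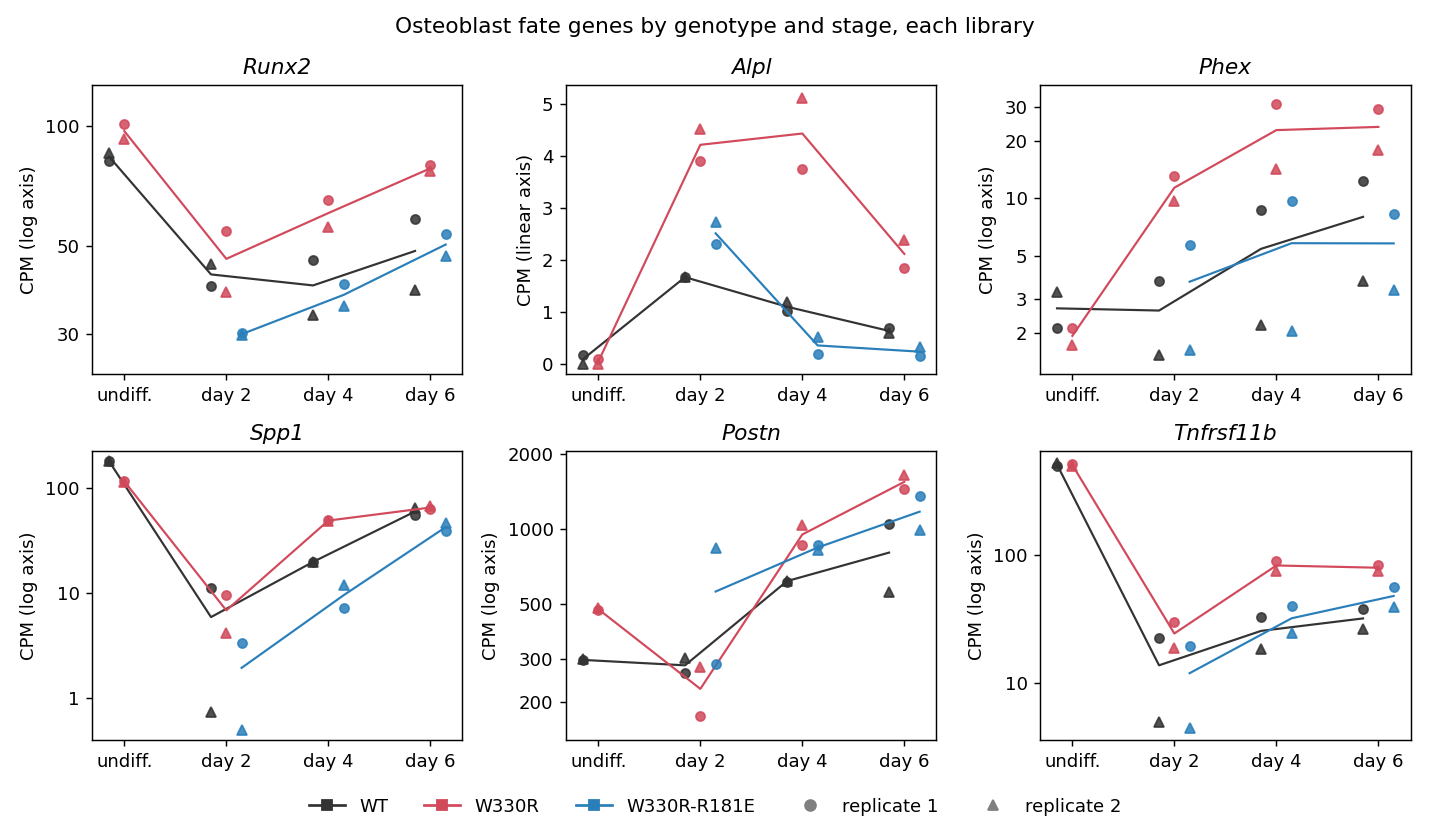
CPM of the 6 tested members (vertical axes logarithmic, except the linear axis of Alpl) at each stage in WT (black), W330R (red) and W330R-R181E (blue). Each point is 1 library (circles are replicate 1, triangles replicate 2) and lines join condition means. From day 4 on, the W330R points lie above the WT points in every panel except Spp1 on day 6. The share of all genes that separate in this way was not counted.

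Runx2, the master regulator, was present in every library and highest before differentiation. In undifferentiated cells it stood at 81.7 and 85.6 CPM in WT and at 101 and 92.6 CPM in W330R. On day 2 it read 39.6 and 45.0 CPM in WT, 54.3 and 38.4 in W330R, and 30.2 and 29.8 in W330R-R181E. By day 6 the WT libraries were at 58.3 and 38.7 CPM, those of W330R at 79.4 and 76.8, and those of W330R-R181E at 53.4 and 47.2. On day 6 both W330R libraries lay above all others of that day, and the WT and double-mutant libraries overlapped each other. In the order of the 11 condition means, the top 4 (W330R undifferentiated, WT undifferentiated, W330R day 6, W330R day 4) did not overlap with each other or with the next in order, although W330R on day 4 spanned 1 of the WT libraries of day 6. The next 6 overlapped from neighbour to neighbour, and W330R-R181E on day 2 was the lowest, without overlap.

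Alpl was close to silent before differentiation and was then the member that set the mutants furthest apart. The undifferentiated libraries held 2 and 0 reads in WT and 1 and 0 in W330R. On day 2 it reached 1.66 and 1.67 CPM in WT, 3.90 and 4.53 in W330R, and 2.30 and 2.72 in W330R-R181E. WT and W330R had thus gained Alpl by day 2, while the double mutant had no undifferentiated library to compare with. On that day the order from low to high was WT, double mutant, W330R with no overlap. On day 4 W330R stood at 3.75 and 5.11 CPM, WT at 1.01 and 1.18, and W330R-R181E at 0.182 and 0.522, on 3 and 12 reads. On day 6 W330R had 1.85 and 2.38 CPM, WT 0.680 and 0.583, and W330R-R181E 0.139 and 0.325, the latter resting on 6 and 3 reads. The double mutant had moved from above WT to below it between days 2 and 4, and W330R was the highest on all 3 days.

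Phex, the peptidase of osteoblasts and osteocytes, was likewise highest in W330R after differentiation had begun. Its WT libraries read 2.11 and 3.25 CPM undifferentiated, 3.70 and 1.52 on day 2, 8.73 and 2.21 on day 4, and 12.3 and 3.74 on day 6. The W330R libraries read 2.12 and 1.73 CPM undifferentiated, 13 and 9.70 on day 2, 31.2 and 14.2 on day 4, and 29.3 and 17.9 on day 6. The double mutant read 5.74 and 1.63 CPM on day 2, 9.66 and 2.04 on day 4, and 8.32 and 3.36 on day 6. Both W330R libraries lay above both libraries of each other genotype on each of the 3 days. Replicate 1 exceeded replicate 2 in all 9 differentiating conditions, by up to 4.73-fold, so the spread around each Phex mean was wide and had the same direction throughout. Spp1 was higher in replicate 1 in 4 of the 9 and Postn in 3. Tnfrsf11b was also higher in replicate 1 in all 9, and Dnmt3a was higher in replicate 2 in all 9. Runx2 was higher in replicate 1 in 8 of the 9, and Alpl in replicate 2 in 8. The source of this shared difference between replicate numbers was not tested.

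Among the matrix genes, Spp1, the phosphorylated glycoprotein osteopontin, fell by day 2 and was higher again by day 6. It stood at 179 and 180 CPM in undifferentiated WT and at 117 and 114 in undifferentiated W330R. On day 2 it read 11 and 0.738 CPM in WT, 9.51 and 4.11 in W330R, and 3.36 and 0.495 in W330R-R181E. Replicates of WT differed 14.9-fold on that day, which is the widest gap between replicates of any tested member on days 2 to 6. On day 4 Spp1 was at 19.6 and 19.8 CPM in WT, 49.3 and 48.4 in W330R, and 7.17 and 11.8 in W330R-R181E. On day 6 it had reached 54.6 and 64.5 CPM in WT, 62.8 and 67.2 in W330R, and 38.5 and 46.0 in W330R-R181E. W330R was ahead on day 4 and overlapped WT on day 6, and the double mutant was lowest at each of the 3 days by its mean.

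Postn, a collagen-binding protein of periosteum and of fibroblasts, was the most abundant member by its median over all libraries and was highest late in differentiation, while Tnfrsf11b had more CPM in undifferentiated cells. WT libraries read 295 and 298 CPM undifferentiated, 262 and 302 on day 2, 614 and 619 on day 4, and 1048 and 558 on day 6. W330R libraries read 469 and 480 CPM undifferentiated, 176 and 277 on day 2, 865 and 1035 on day 4, and 1447 and 1653 on day 6. W330R-R181E libraries read 284 and 835 CPM on day 2, 864 and 819 on day 4, and 1356 and 994 on day 6. W330R thus spanned the widest range, with the lowest library of all on day 2 and the highest on day 6.

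Tnfrsf11b, the secreted inhibitor of osteoclast formation, was far higher in undifferentiated cells than later. It stood at 500.4 and 526 CPM in WT and 517 and 503 in W330R before differentiation. On day 2 it read 22.7 and 4.97 CPM in WT, 30.0 and 19.1 in W330R, and 19.5 and 4.50 in W330R-R181E. On day 4 W330R had 91.3 and 75.8 CPM, WT 33.0 and 18.5, and W330R-R181E 39.9 and 24.6. On day 6 the values were 84.3 and 76.0 CPM in W330R, 37.8 and 26.6 in WT, and 57.1 and 39.4 in W330R-R181E. The W330R libraries were above all others on days 4 and 6, and the WT and double-mutant libraries overlapped on days 2 and 4. The day 2 libraries with the lowest Spp1, replicate 2 of WT and of W330R-R181E, were also those with the lowest Tnfrsf11b.

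W330R carried more of these transcripts than WT once differentiation had begun. Averaged over days 2, 4 and 6, an average chosen after the data were seen because the undifferentiated columns are named differently, Runx2, Alpl, Phex and Tnfrsf11b were higher in W330R, 4 of 6 tested members against 14.3% of all genes called higher in this comparison (29.0% in either direction). The members were chosen with earlier results of these data known, so this share and those below describe them and are not an independent test. Runx2 was 1.39-fold higher (log2 fold change 0.47 ± 0.12 SE, edgeR adjusted p = 0.00771). The phosphatase Alpl was 3.23-fold higher (1.69 ± 0.33, edgeR adjusted p = 0.00173) and the peptidase Phex 3.79-fold higher (1.92 ± 0.49, edgeR adjusted p = 0.00988). Tnfrsf11b was 2.44-fold higher (1.29 ± 0.35, edgeR adjusted p = 0.0135). The matrix genes did not pass, with log2 fold changes of 0.57 ± 0.41 for Spp1 (edgeR adjusted p = 0.327) and 0.42 ± 0.22 for Postn (edgeR adjusted p = 0.174). Leaving out each of the 12 libraries in turn kept Runx2, Alpl and Phex called, whereas Tnfrsf11b was lost without replicate 2 of WT on day 4 (adjusted p = 0.0509) and Spp1 was called without replicate 1 of WT on day 2 (log2 fold change 1.54, adjusted p = 0.00405).

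With undifferentiated cells included, as a mean over 4 stages, 3 members were higher in W330R and none lower, where 11.2% of all genes were called higher and 11.8% lower. Runx2 was higher by a log2 fold change of 0.41 ± 0.10 (edgeR adjusted p = 0.0104), Phex by 1.32 ± 0.44 (0.0421) and Tnfrsf11b by 0.96 ± 0.30 (0.0325). Runx2 was called in all 16 fits that left out 1 library (0.34 to 0.49). The other members did not pass: Postn had 0.48 ± 0.19 (edgeR adjusted p = 0.0843), Spp1 0.27 ± 0.35 (0.641), and Alpl an adjusted p of 0.12, with no fold given because its undifferentiated libraries are at the floor. The Phex call was lost in 12 of those 16 fits and the Tnfrsf11b call in 11, with adjusted p up to 0.098 and 0.0901.

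Within single stages no member was called between W330R and WT in the edgeR fit of condition means. The share of all genes called was 1.75% before differentiation and then 3.06%, 6.14% and 7.54% on days 2, 4 and 6. An unadjusted p under 0.05 was reached by 0, 2, 4 and 4 members in that order, and by 12.3%, 18.2%, 23.1% and 22.4% of all genes. In undifferentiated cells Runx2 and Postn had positive log2 fold changes (0.21 ± 0.20 and 0.68 ± 0.38), Spp1 and Phex negative ones (-0.64 ± 0.68 and -0.49 ± 0.93), and Tnfrsf11b -0.01 ± 0.58. On day 4 all 6 were positive, with a median of 1.51 against 0.02 over all genes, and on day 6 all 6 again, with a median of 1.13 against 0.04. Alpl came closest on day 4 (log2 fold change 2.01, 95% interval 0.80 to 3.22, edgeR adjusted p = 0.0504) and Runx2 on day 6 (0.69, interval 0.26 to 1.12, 0.0517). DESeq2 called 0, 1, 3 and 2 members at the 4 stages, against 3.64%, 7.44%, 11.7% and 12.1% of the 14520 genes. The change from undifferentiated cells to day 2 and that from day 2 to day 6 were also compared between the genotypes directly, and no member was called in either by edgeR (1.87% and 0.0895% of all genes) or by DESeq2 (4.63% and 0.888%). Unadjusted p under 0.05 was reached by 0 members and 1 member, and by 14.3% and 6.71% of all genes.

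**Figure D3:**
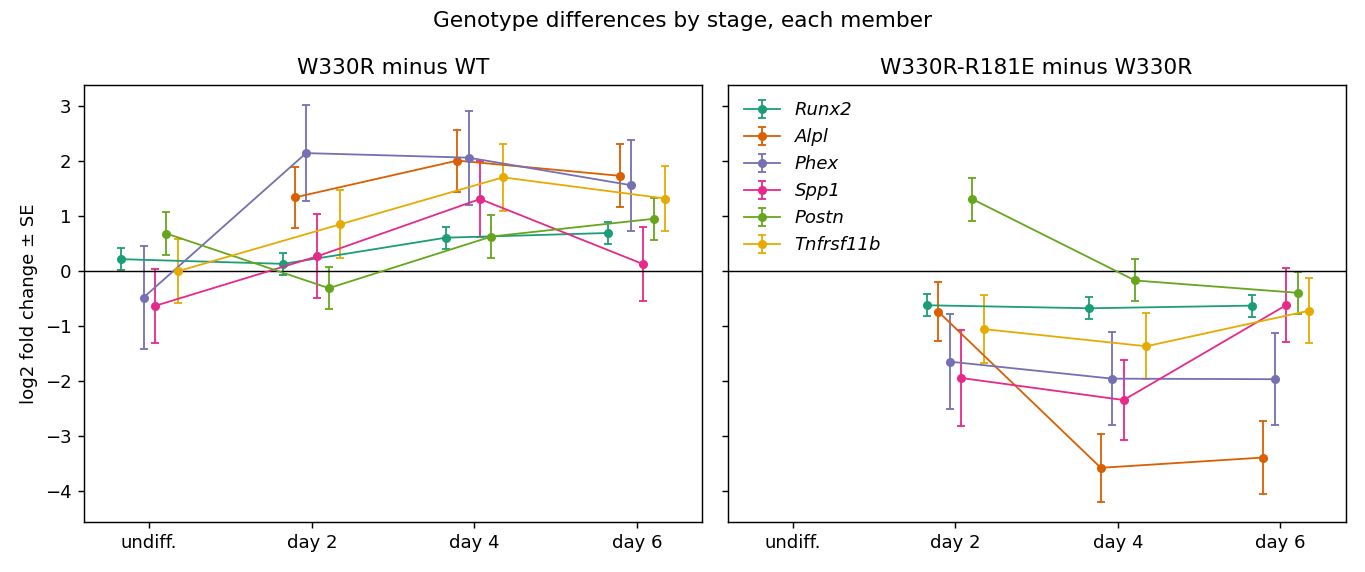
log2 fold change ± SE of each tested member at each stage, for W330R minus WT (left) and W330R-R181E minus W330R (right; no undifferentiated libraries). Alpl is not drawn in undifferentiated cells, where it is at the floor. On days 4 and 6 all 6 members lie above 0 on the left and below 0 on the right.

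The double mutant W330R-R181E carried less Runx2, Alpl, Phex and Spp1 than W330R. Averaged over days 2 to 6, 4 of the 6 tested members were lower and none higher, where 9.36% of all genes were called lower and 7.87% higher. Runx2 fell by 0.65 ± 0.12 on the log2 scale (edgeR adjusted p = 0.00194). Alpl fell by 2.58 ± 0.35 (edgeR adjusted p = 0.000261), a 5.97-fold difference in level. Phex fell by 1.86 ± 0.49 (edgeR adjusted p = 0.0182) and Spp1 by 1.64 ± 0.44 (edgeR adjusted p = 0.0195). Tnfrsf11b did not pass at -1.05 ± 0.35 (edgeR adjusted p = 0.0521), and Postn stood at 0.24 ± 0.22 (edgeR adjusted p = 0.514). Both libraries of W330R exceeded both of the double mutant for Runx2, Alpl, Phex and Spp1 on each of the 3 days. The share of all genes that separate in this way was not counted, so this only describes the libraries. Phex and Spp1 were each lost in 3 of the 12 fits that left out 1 library, with adjusted p up to 0.0585 and 0.0617, and Runx2 and Alpl in none.

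At single days Alpl was the 1 member called. On day 4 its log2 fold change in the double mutant against W330R was -3.59 (95% interval -4.91 to -2.26, edgeR adjusted p = 0.0116). On day 6 it was -3.40 (-4.84 to -1.96, edgeR adjusted p = 0.0241). Each double-mutant mean here rests on few reads, 15 on day 4 and 9 on day 6 over both libraries, and 1 library of each day is at the floor, so the size of these differences and of the 5.97-fold average is imprecise. These calls stand against 1.35% and 0.937% of all genes called lower on those days. On day 2 no member was called in edgeR (2.67% of all genes), 3 had an unadjusted p under 0.05 (15.4%) and DESeq2 called 1 (6.21%). There Postn stood at 1.31 (0.47 to 2.14, edgeR adjusted p = 0.0951) and Runx2 at -0.63 (-1.06 to -0.19, edgeR adjusted p = 0.127). The Alpl call on day 6 was lost whichever of the 4 libraries was left out (adjusted p 0.0843 to 0.146), and that on day 4 without replicate 1 of either mutant (up to 0.151).

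Set against WT, no member was called in the double mutant in edgeR. None of the 6 passed in the mean of days 2 to 6 (9.57% of all genes called), on day 2 or 4 (0% of all genes), or on day 6 (0.875%), while DESeq2 called 2 in the mean (15.6%) and 0 on the single days (0.758%, 1.10% and 4.15%). Unadjusted p under 0.05 was reached by 3 members in the mean (27.3% of all genes), and by 2, 1 and 1 on days 2, 4 and 6 (8.95%, 11.3% and 14.9%). The intervals leave room for sizeable differences. Runx2 had a log2 fold change of -0.17 (95% interval -0.42 to 0.08) and Phex 0.06 (-0.99 to 1.11). Tnfrsf11b had 0.24 (-0.52 to 0.99), Alpl -0.89 (-1.66 to -0.11), Spp1 -1.08 (-2.03 to -0.13) and Postn 0.66 (0.19 to 1.14). The last 3 excluded 0 before adjustment, and their adjusted p-values were 0.129, 0.134 and 0.0728. Leaving out 1 library at a time gave -0.11 (without replicate 1 of WT on day 2) to -1.67 for Spp1, called in 1 of 12 fits (-1.40 without replicate 2 of WT on day 2, adjusted p = 0.0231). Postn ranged from 0.34 to 0.86 (without replicate 2 and replicate 1 of W330R-R181E on day 2) and was called in 2 of 12 fits. The 3 genotype comparisons share libraries, so their values are set side by side and are not separate evidence.

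**Figure D4:**
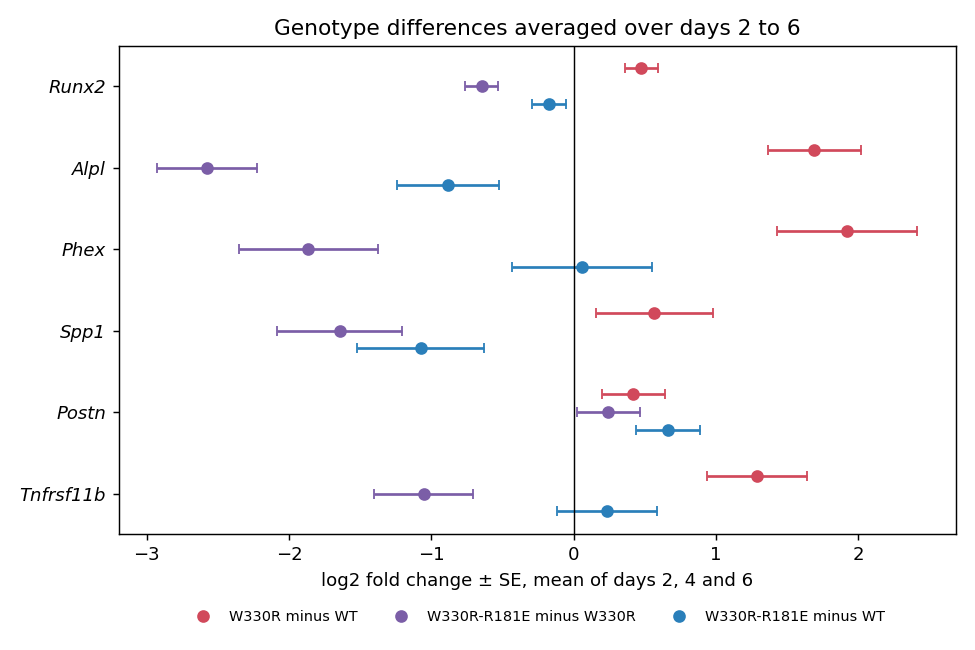
log2 fold change ± SE (horizontal axis) of the 6 tested members averaged over days 2, 4 and 6, for W330R minus WT (red), W330R-R181E minus W330R (purple) and W330R-R181E minus WT (blue). Alpl spans 1.69, -2.58 and -0.89, and Runx2 spans 0.47, -0.65 and -0.17, in that order.

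From undifferentiated cells to day 2 Runx2, Spp1 and Tnfrsf11b fell and Alpl rose in both WT and W330R. In WT 3 members fell, with log2 fold changes of -0.98 ± 0.20 for Runx2 (edgeR adjusted p = 0.00111), -5.00 ± 0.82 for Spp1 (0.000179) and -5.24 ± 0.71 for Tnfrsf11b (3.5e-05). Alpl rose, from 2 reads over both libraries to 56 (edgeR adjusted p = 0.000334). Scaled to depth, the Alpl ratio was 28.2, with a 95% counting interval of 7.45 to 239. Of all genes, 24.4% were called lower and 26.5% higher in this step. In W330R all 6 were called. Runx2 fell by 1.07 ± 0.20 on the log2 scale (edgeR adjusted p = 0.000683), Spp1 fell by 4.10 ± 0.78 (0.000675), Tnfrsf11b fell by 4.38 ± 0.67 (0.000127) and Postn fell by 1.07 ± 0.39 (0.0344). Phex rose by 2.55 ± 0.92 (edgeR adjusted p = 0.0342), and Alpl rose from 1 read to 192 (adjusted p = 5.65e-05), a ratio of 89.2 (15.8 to 3540). Here 23.0% of all genes were called lower and 25.1% higher. The Phex call was lost whichever of the 4 libraries was left out (adjusted p 0.0586 to 0.144), and that of Postn in 3 of 4.

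From day 2 to day 6 Spp1 rose in all 3 genotypes, and other members rose in some. In WT, Spp1 rose by 3.41 ± 0.78 (edgeR adjusted p = 0.00541) and Postn by 1.51 ± 0.39 (0.0113), 2 members against 14.8% of all genes called higher (11.8% lower). In W330R, Postn rose by 2.78 ± 0.41 (edgeR adjusted p = 0.000432), Spp1 by 3.27 ± 0.75 (0.00646) and Runx2 by 0.76 ± 0.20 (0.0141), 3 members against 13.6% (11.3% lower). In W330R-R181E, Spp1 rose by 4.60 ± 0.87 (edgeR adjusted p = 0.00255), Tnfrsf11b by 2.05 ± 0.63 (0.0318) and Runx2 by 0.75 ± 0.20 (0.0178), 3 members against 12.9%. Alpl went the other way in the double mutant and fell by 3.66 ± 0.68 (edgeR adjusted p = 0.00226), where 10.3% of all genes were called lower. Its values in the other genotypes were -1.39 ± 0.59 in WT (edgeR adjusted p = 0.0942) and -1.0 ± 0.53 in W330R (0.189). The difference of this change between the mutants was -2.66 for Alpl (95% interval -4.48 to -0.83, unadjusted p = 0.00743, edgeR adjusted p = 0.913) and -1.71 for Postn (-2.87 to -0.54, 0.00733 unadjusted, adjusted 0.913). No member was called for it in edgeR (0% of all genes) or DESeq2 (0.269%), and 2 had an unadjusted p under 0.05 (4.10%). Between W330R-R181E and WT none was called either (0.0413% in edgeR, 0.482% in DESeq2), and 1 had an unadjusted p under 0.05 (5.47%). Leaving out 1 library ended several of these calls: Postn in WT and Runx2 in W330R in 3 of 4 fits each (adjusted p up to 0.14 and 0.13), Spp1 in W330R in 1 of 4 (0.0629, without replicate 2 of day 2), and Runx2 and Tnfrsf11b in W330R-R181E in 2 of 4 each (up to 0.106 and 0.228, without replicate 2 of day 2 or replicate 1 of day 6). Without replicate 1 of WT on day 2 the WT rise of Spp1 became 6.32, and without replicate 2 of that condition 2.48.

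A wider osteogenic program of 50 listed genes, of which 45 could be tested, was compared in the same fits. In W330R against WT over 4 stages, 2 of the 45 were higher and 2 lower, smaller shares than the 11.2% and 11.8% of all genes. The higher ones were Smpd3, a sphingomyelinase needed for mineralisation, at 0.77 ± 0.22 (edgeR adjusted p = 0.0205), and Twist2, a factor that restrains Runx2, at 0.35 ± 0.09 (0.017). The lower ones were Phospho1, a phosphatase of matrix vesicles, at -1.14 ± 0.15 (edgeR adjusted p = 0.000313), and Atf4, a factor that osteoblasts and stressed cells use, at -0.64 ± 0.14 (0.00476). The median log2 fold change of the 45 was 0.06, against 0.01 over all genes. This mean joins stages of opposite sign. By stage the median was -0.33 in undifferentiated cells and 0, 0.32 and 0.25 on days 2, 4 and 6. Over all genes it was -0.004, 0, 0.02 and 0.04 in that order. By group, 1 of 15 regulators rose and 1 fell, 1 of 7 mineral handling genes rose and 1 fell, and none of 12 bone matrix genes, 3 osteoclast coupling and osteocyte factors or 8 matrix receptors was called.

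In the double mutant against W330R over days 2 to 6, 5 of the 45 were higher and 8 lower, against 7.87% and 9.36% of all genes. The largest increases were in Itgb3, a subunit of the integrin that binds osteopontin, at 2.67 ± 0.65 (edgeR adjusted p = 0.0122), in the Runx family member Runx1 at 1.48 ± 0.28 (0.00281), in Enpp1, which makes the mineral inhibitor pyrophosphate, at 1.15 ± 0.33 (0.0278), and in Atf4 at 0.69 ± 0.16 (0.00845). The largest decreases were in Smpd3 at -1.99 ± 0.27 (edgeR adjusted p = 0.000232), the integrin subunit Itga8 at -1.68 ± 0.37 (0.00675), the osteoclast growth factor Csf1 at -1.16 ± 0.25 (0.00628) and the collagen chain Col1a2 at -0.64 ± 0.17 (0.0203). The median of the 45 was -0.22, against 0.01 over all genes. Against WT the double mutant was lower in 3 of the 45 and higher in none, where 5.12% of all genes were called lower and 4.46% higher. These were Itga8 (-1.37 ± 0.37, edgeR adjusted p = 0.0348), Phospho1 (-1.07 ± 0.17, 0.0037) and Smpd3 (-0.97 ± 0.28, 0.043).

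Over time more of the listed genes fell than rose up to day 2, and more rose than fell afterwards. From undifferentiated cells to day 2, 21 of the 45 fell and 8 rose in WT, where 24.4% of all genes fell and 26.5% rose. In W330R 21 fell and 9 rose, against 23.0% and 25.1%. Bone matrix genes made up 6 of those falling in each genotype. From day 2 to day 6, 13 rose and 5 fell in WT (14.8% and 11.8% of all genes), 14 rose and 3 fell in W330R (13.6% and 11.3%), and 11 rose and 5 fell in W330R-R181E (12.9% and 10.3%). Of the 12 tested bone matrix genes, 5 rose in each genotype and none fell.

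Markers of other cell types were also compared between the genotypes, as summed levels. Over days 2 to 6 the summed level of 8 adipocyte markers was between 2875 and 9226 CPM in WT, 1441 and 2527 in W330R, and 1700 and 4346 in W330R-R181E, with all 8 above 3 reads in every one of these libraries. The summed level of 6 mesenchymal progenitor markers was between 255 and 576 CPM in WT, 546 and 988 in W330R, and 221 and 572 in W330R-R181E. W330R therefore had the fewest adipocyte and the most progenitor transcripts, and its progenitor markers overlapped those of neither genotype at the same day. Their part in the member differences was not tested. Chondrocyte markers (6 genes) were between 216 and 2183 CPM in WT, 334 and 830 in W330R, and 254 and 5352 in W330R-R181E. Smooth muscle markers (5 genes) were between 10.1 and 529 CPM, 30.3 and 638, and 18.1 and 841 in the same order. These ranges pool days and replicates. On day 2 alone the 2 libraries of W330R-R181E had chondrocyte sums of 254 and 2162 CPM. In WT the smooth muscle sums were 10.1 and 46.3 CPM on day 2 and 230 and 529 on day 6. Tendon markers (3 genes) were between 8.75 and 59.8 CPM over these libraries, and those of macrophages and osteoclasts (8 genes, 5 past the filter) between 3.52 and 20.0 CPM. Their part in the results was not tested either.

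Across the 11 condition means, the members formed no single pattern. Runx2 correlated with Tnfrsf11b at a Pearson r of 0.92 and with Spp1 at 0.85, and Spp1 with Tnfrsf11b at 0.87, all sharing the drop at day 2. Alpl correlated with Phex at 0.63 and with Tnfrsf11b at -0.64. Alpl, with a mean log2 CPM under 1, was left out of the search for genes of like pattern. For the other tested members the genes most like each among 11532 compared included Tbx18 (0.977) and Usp11 (0.967) for Runx2, and Rtn4rl2 (0.971), Zfp334 (0.967) and Ptges (0.966) for Phex. They were Pdlim2 (0.983), Col1a2 (0.981) and Rgs3 (0.980) for Spp1, Gm2a (0.970), Cldn19 (0.967) and Dgcr2 (0.947) for Postn, and Lhfp (0.996), Frmd4a (0.995) and Slc25a24 (0.993) for Tnfrsf11b. These are descriptions over 11 points that share libraries, stages and scaling.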

How the data were processed

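RNA was sequenced from 22 C3H 10T1/2 libraries of 11 conditions, and the authors deposited 1 table of whole read counts per gene symbol with no normalization. Per the labels, the submitters' processing notes name kallisto, DESeq2 1.40 and the mouse build GRCm39. How the counts were summed to genes, and whether strand was used, is not given in the sources used here, and counts that a pseudoaligner splits between similar genes can shift values of genes that share sequence. The article at hand describes no RNA-seq, so no design was taken from it.

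In R 4.3.3, edgeR 4.0.16 kept 14520 of 30170 genes (filterByExpr by condition, with its defaults of at least 10 counts and a total of 15). Libraries were scaled by TMM, and 1 quasi-likelihood model with 11 condition means was fitted to all 22 libraries, which leaves 11 residual degrees of freedom. It was fitted to 22 comparisons, each adjusted over all genes tested. The SE is the log2 fold change divided by the square root of F. CPM and RPKM use TMM-scaled library sizes, and RPKM divides by the union of GENCODE exons (GRCm38), whose gene coordinates are not used because the builds differ. Patterns were compared as log2 CPM (prior count 2). Total counts per library set the precision: 3 counts equal 0.0583 to 0.347 CPM. Alpl ratios are of summed counts, with exact 95% intervals.

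The members and lists were chosen with earlier results of these data known. Members, Dnmt3a, list genes and the genes most alike the members were named by rule. List genes were up to 4 with the largest increase and 4 with the largest decrease for each of the 3 averaged comparisons. They were taken among called genes of mean log2 CPM of at least 1. The 3 genes most alike were named for each tested member of at least that mean, which left out Alpl. 1 of these genes is not reported here. Alternatives were DESeq2 1.42.0, RLE scaling, no filter, a fit of only the conditions compared or only days 2 to 6, the replicate number as a block, each library left out, and, added later, days 2 to 6 for W330R against WT. The tests were checked on simulated counts.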

Additional observations from a re-analysis of the deposited data

Results flagged for a closer look

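Members whose effect pointed in opposite directions at different stages, with libraries of the compared genotypes not overlapping at either stage, were picked out. For Spp1 in W330R against WT, the log2 fold change was -0.64 in undifferentiated cells, where both W330R libraries were lower, and 1.31 on day 4, where both were higher. The difference between those stages was not tested.

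Postn in W330R-R181E against W330R had a log2 fold change of 1.31 on day 2, -0.18 on day 4 and -0.40 on day 6. The day 4 separation depends on the scaling. Replicate 1 of W330R was at 865.45 CPM and replicate 1 of W330R-R181E at 864.30. With RLE factors they were at 861 and 873 CPM, so the libraries overlapped. The difference between days 6 and 2 was -1.71 ± 0.54 SE (edgeR adjusted p = 0.913, unadjusted 0.00733), and the day 2 value became 0.34 without replicate 2 of W330R-R181E on that day.

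Alpl in W330R-R181E against WT had a log2 fold change of 0.59 on day 2, -1.58 on day 4 and -1.67 on day 6. The difference between days 6 and 2 was -2.26 ± 0.89 (edgeR adjusted p = 0.762, unadjusted 0.0231).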

How the results depend on the processing

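Of the 28 member calls, all 28 kept their direction and their side of the threshold with DESeq2, with RLE scaling, without the filter and with the replicate block, and 20 of 28 in fits of only the conditions compared. Fits of only days 2 to 6 kept 14 of 15. The same settings added 15, 0, 9, 15, 5 and 3 calls among the other member comparisons.

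Counts of members called moved most at single stages, and the cause was not tested. For W330R against WT the count of 0 became 1 on day 2 with DESeq2 and 1 with the block. On day 4 it became 3 with DESeq2, 2 without the filter, 4 with the block and 1 in the fit of days 2 to 6. On day 6 it became 2, 1, 2 and 1 under the same settings. In undifferentiated cells it became 3 in a fit of those conditions only, which called 4068 genes in all in place of 254. For W330R-R181E against W330R the count of 0 on day 2 became 1 with DESeq2 and 1 without the filter. The count of 1 on day 4 became 2 with DESeq2, 2 without the filter, 3 with the block and 0 in its own conditions, and that on day 6 became 2 with the block and 0 in its own conditions. For W330R-R181E against WT averaged over days 2 to 6 the count of 0 became 2 with DESeq2 and 1 without the filter. From day 2 to day 6 in WT the count of 2 became 4 with the block and 0 in its own conditions, and in W330R-R181E the count of 4 became 0 in its own conditions.

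Leaving out each library gave 1 to 4 members for W330R against WT over 4 stages (3 with all libraries), 0 to 1 on day 4 and 0 to 1 on day 6. For W330R-R181E against W330R it gave 0 to 1 on day 2, 0 to 1 on day 4 and 0 to 0 on day 6, and for W330R-R181E against WT averaged over days 2 to 6 it gave 0 to 1. From day 2 to day 6 it gave 1 to 2 in WT, 1 to 3 in W330R and 2 to 4 in W330R-R181E, and for the step to day 2 between W330R and WT 0 to 1. For W330R-R181E against WT the log2 fold change of Phex ranged from -0.44 to 0.49 and that of Tnfrsf11b from -0.22 to 0.72, and for W330R-R181E against W330R that of Postn from -0.070 to 0.44. A condition left with 1 library was taken to vary like the others.

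Counts over all genes moved further: W330R against WT on day 4 called 891 genes, 0 in its own conditions and 1848 with the block. For W330R-R181E against WT averaged over days 2 to 6, the count was 1390 with a range of 152 to 2338.

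The replicate numbers were checked for pairing. Over 36 pairs of differentiating conditions, same-numbered libraries deviated together with a mean correlation of 0.215, and 27 pairs exceeded 0.1, so not every pair did and the numbers were not taken to pair the libraries. In 10 of the 11 conditions, libraries deviated together on average with same-numbered libraries of the other conditions, as a positive mean correlation. This is a hint from the data and not from the design. With the replicate number as a block, the Phex log2 fold change between W330R and WT over days 2 to 6 went from 1.92 ± 0.49 SE to 2.06 ± 0.30. That of Tnfrsf11b went from 1.29 ± 0.35 to 1.36 ± 0.26. Low counts limit Alpl, whose libraries held 0 to 138 reads.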
